A study of Homo sapiens with 4 samples.

Results

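The mitochondrial genome is a circular chromosome of 16569 bases, and its 37 genes were compared between the esophageal adenocarcinoma (EAC) line FLO-1 and its liver-metastatic subline FLO-1LM. The genes were chosen by their symbols, which start with MT-, and all 37 were present among the 63677 genes of the count files. They comprise 2 ribosomal RNA (rRNA) genes, 13 protein genes and 22 transfer RNA (tRNA) genes. By the strand of the annotation, 28 are made from heavy-strand transcription (both rRNAs, 12 proteins and 14 tRNAs) and 9 from light-strand transcription (*MT-ND6* and 8 tRNAs). No measured value entered this grouping, but the set was taken up after its differences in these same 4 libraries were known, so the tests below are not independent evidence for it.

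FLO-1 parental cells are an established human EAC line. FLO-1LM is 1 line, grown out of a liver macro-metastasis after serial passage of FLO-1 cells through NSG mice, which lack mature T, B and natural killer cells. There were 2 RNAseq libraries of FLO-1LM and 2 of FLO-1 parental cells, all from cultures near confluence that had received fresh medium the day before, with no other treatment. Total RNA was extracted and made into directional libraries, which are designed to retain the strand of each transcript. Whether RNA with poly(A) tails was selected, or rRNA removed, is not stated in the methods of the study. The effect of such a step on the mitochondrial and rRNA shares was not tested. Whether the replicates of each line were separate cultures is not given in the sources used here, so p-values measure only the spread between these libraries, and as no preparation or sequencing batch is given, batch and line cannot be told apart.

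Mitochondrial DNA is transcribed as long precursors that run around much of the circle from each strand. The tRNAs lie between the other genes, and their removal releases the mRNAs and rRNAs, so genes of a strand are made together and their steady levels also depend on processing and decay. All of the proteins are subunits of the respiratory chain or of ATP synthase, and the rRNAs and tRNAs serve the ribosomes that translate them within the organelle.

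Total counts ran from 19060310 to 25920336 per library. The keratin genes *KRT8* and *KRT18*, markers of epithelial cells, had 4068 to 9568 counts in each library, whereas *EPCAM*, another epithelial marker, had only 3 to 12. The hepatocyte genes *ALB* and *TTR*, the blood cell genes *PTPRC* and *HBB*, and the fibroblast gene *DCN* had no counts in any library. Of the other markers examined, the epithelial *KRT19* and *CDH1* had 294 to 665 and 365 to 1894 counts, the hepatocyte gene *APOA1* 1 to 7, and the fibroblast genes *COL1A1* and *COL1A2* 186 to 284 and 0 to 1.

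Mitochondrial genes took a larger share of the counts in FLO-1LM. The share was 9.96% and 9.57% in the FLO-1LM libraries and 7.93% and 8.31% in the parental libraries, 1.20 times as much on average. Against nuclear protein-coding genes alone, there were 11.8 and 11.3 mitochondrial counts per 100 in FLO-1LM and 9.21 and 9.71 in parental cells. Both FLO-1LM libraries lay above both parental libraries on either scale. An exact permutation test of 2 libraries against 2 cannot give a two-sided p below 0.333, so single values of this kind are given without a test. In bulk libraries, a change in how many cells carry a transcript and a change in its amount per cell cannot be told apart.

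The rRNA and protein genes kept close to the same shares of the mitochondrial counts, whereas the small tRNA share was lower in FLO-1LM. The rRNAs made up 32.0% and 33.8% of mitochondrial counts in FLO-1LM and 31.7% and 32.0% in parental cells. Protein genes made up 67.9% and 66.1% in FLO-1LM and 68.2% and 67.9% in parental cells. The mean rRNA shares were 32.9% and 31.8% in FLO-1LM and parental cells. The tRNA genes together made up 0.0882% and 0.0881% in FLO-1LM and 0.117% and 0.112% in parental cells, 1.30 times as much in parental cells and without overlap. These genes are only 59 to 75 bases long. How far their counts, here and below, come from released tRNAs or from longer precursors was not tested.

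The balance of strands differed more. Genes of light-strand transcription made up 0.132% and 0.179% of mitochondrial counts in FLO-1LM and 0.339% and 0.331% in parental cells. The parental share was 2.15 times that of FLO-1LM, and the libraries of the lines did not overlap. Most of these counts were *MT-ND6*, and without it the share was 0.0142% and 0.0158% in FLO-1LM and 0.0303% and 0.0336% in parental cells, 2.13 times as much in parental cells. The heavy-strand tRNAs had 1668 and 1793 counts in FLO-1LM and 1490 and 1236 in parental cells. These are raw counts, 1.27 times as many in FLO-1LM, where all mitochondrial counts were 1.43 times as many. As a share of mitochondrial counts the heavy-strand tRNAs were therefore lower in FLO-1LM too. The light-strand tRNAs had 320 and 392 in FLO-1LM but 522 and 532 in parental cells, although the FLO-1LM libraries were the deeper ones. Much of this difference lay in *MT-TY*, with 18 and 48 of these counts in FLO-1LM and 146 and 148 in parental cells. No other light-strand tRNA passed the test below.

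**Figure D1:**
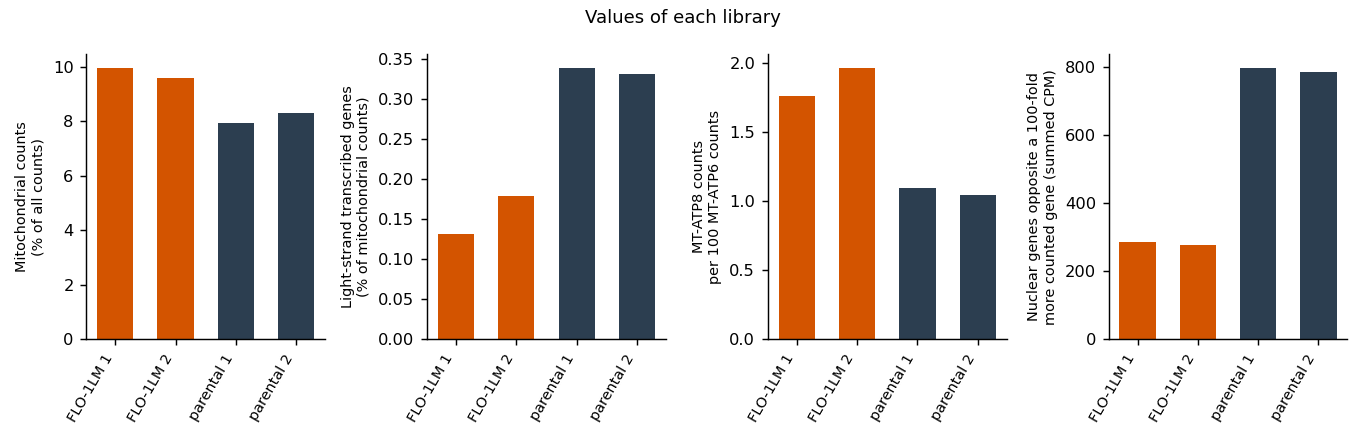
Bars give a single value for each of the 4 libraries, with orange for FLO-1LM and dark blue for FLO-1 parental cells. From left to right the panels plot the mitochondrial percent of all counts, the light-strand percent of mitochondrial counts, *MT-ATP8* counts per 100 *MT-ATP6* counts, and the summed CPM, with no filter, of nuclear genes that face a gene counted at least 100 times as often, a limit chosen after seeing the data. FLO-1LM libraries were above both parental libraries in the first and the third panels, and below them in the second and the fourth.

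Gene by gene, each count was scaled to CPM, the count per 1e+06 counts of the library, with TMM factors of 0.985 to 1.015, and the lines were compared with edgeR's quasi-likelihood test over all 17143 genes that passed the filter on low counts. Of the 37 mitochondrial genes 28 passed this filter, comprising both rRNAs, all 13 protein genes and 13 tRNAs. By edgeR at an adjusted p below 0.05, 10 of the 28 rose in FLO-1LM and 2 fell, where 0.402% of all tested genes rose and 1.83% fell. The 10 that rose were both rRNAs and 8 proteins of heavy-strand transcription, and the 2 that fell, *MT-ND6* and *MT-TY*, both belong to light-strand transcription. Among the 20 heavy-strand genes tested, both FLO-1LM libraries were above both parental libraries for 13 and below for 1, where 20.9% and 21.7% of all tested genes did so. Among the 8 light-strand genes tested, FLO-1LM was above for 0 and below for 4. *MT-TC*, among these 4, and *MT-TL1*, the 1 heavy-strand gene below, passed the filter only through the parental libraries. Such passage favours lower values in FLO-1LM, so neither gene adds to this comparison. The median log2 fold change, FLO-1LM against parental, was 0.29 for the heavy-strand genes, −0.56 for the light-strand genes and 0.0016 for all genes tested.

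**Figure D2:**
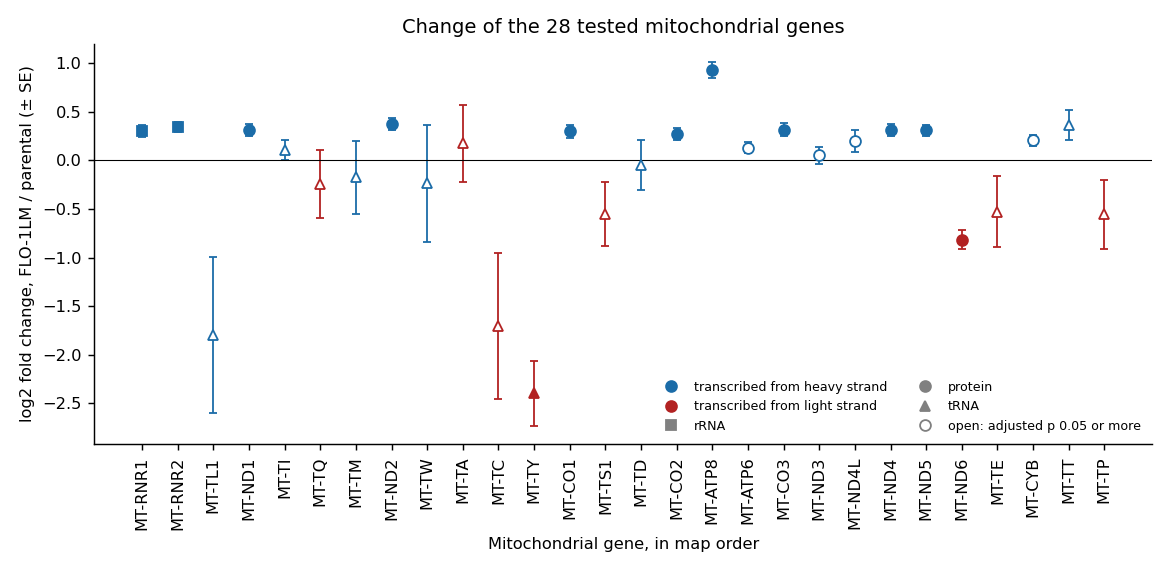
The vertical axis gives the edgeR log2 fold change, FLO-1LM against FLO-1 parental, with its standard error as a bar, for the 28 tested mitochondrial genes in the order of the map on the horizontal axis. Blue marks heavy-strand and red light-strand genes, shapes give the class, and filled symbols have an adjusted p below 0.05. The 14 heavy-strand rRNA and protein genes lie above 0, and 7 of the 8 light-strand genes lie below 0. Scaling to mitochondrial counts alone would put *MT-ND3* at −0.24, *MT-ATP6* at −0.17, *MT-CYB* and *MT-ND4L* at −0.09 and *MT-CO2* at −0.017. The other heavy-strand rRNA and protein genes would stay above 0.

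Both rRNAs rose. *MT-RNR2* (MT:1671-3229 of GRCh37, forward strand), the large-subunit rRNA, was the most abundant mitochondrial gene per length, at 15293 CPM per kb in parental cells and 19445 in FLO-1LM. It had 30299 and 30330 CPM in FLO-1LM and 23027 and 24655 in parental cells. The FLO-1LM libraries were nearly equal and above both parental ones, and edgeR gave a log2 fold change of 0.35 (SE 0.054, adjusted p = 0.00107). *MT-RNR1* (MT:648-1601, forward strand), the small-subunit rRNA, had 2099 and 2244 CPM in FLO-1LM and 1775 and 1745 in parental cells, without overlap. Its log2 fold change by edgeR was 0.30 (SE 0.064, adjusted p = 0.0143). There were 14.4 and 13.5 *MT-RNR2* counts per *MT-RNR1* count in FLO-1LM and 13.0 and 14.1 in parental cells, ranges that overlapped.

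Complex I (NADH dehydrogenase) takes in electrons at the start of the respiratory chain, and 7 of its subunits are mitochondrial. Of these, 4 rose, 1 fell and 2 did not pass the test. *MT-ND2* (MT:4470-5511) had 3470 and 3444 CPM in FLO-1LM and 2629 and 2713 in parental cells, with a log2 fold change of 0.37 by edgeR (SE 0.061, adjusted p = 0.00162). *MT-ND1*, *MT-ND4* and *MT-ND5* rose by similar amounts, with log2 fold changes of 0.32, 0.31 and 0.31 and edgeR adjusted p of 0.0085, 0.00796 and 0.00816. In all 4 genes both FLO-1LM libraries were above both parental ones, and the spread within a line was small. *MT-ND5* (MT:12337-14148) had 4093 and 3915 CPM in FLO-1LM and 3231 and 3228 in parental cells.

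The short genes *MT-ND3* and *MT-ND4L* did not pass. *MT-ND3* had 716.5 and 890.1 CPM in FLO-1LM and 809.9 and 736.1 in parental cells, so the lines overlapped, and edgeR gave 0.06 (SE 0.087, adjusted p = 0.875). *MT-ND4L*, whose last 7 bases (MT:10760-10766) are also the start of *MT-ND4*, had 462.2 and 685.7 CPM in FLO-1LM and 489.7 and 508.9 in parental cells, and edgeR gave 0.20 (SE 0.12, adjusted p = 0.531). The FLO-1LM libraries stood on either side of the parental ones for this gene, replicate 2 being 0.57 higher than replicate 1 on the log2 scale.

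*MT-CYB*, the mitochondrial subunit of complex III (cytochrome bc1), missed the threshold. It had 5225 and 4872 CPM in FLO-1LM and 4319 and 4434 in parental cells, so the lines did not overlap, but edgeR gave 0.21 (SE 0.061, adjusted p = 0.104). Complex IV (cytochrome c oxidase) reduces oxygen to water, and all 3 of its mitochondrial subunits, which form its catalytic core, rose. *MT-CO1* had 15476 and 13148 CPM in FLO-1LM and 11305 and 11948 in parental cells, with a log2 fold change of 0.30 by edgeR (SE 0.068, adjusted p = 0.0239). Its FLO-1LM libraries were farther apart than its parental ones, and without FLO-1LM replicate 1 its value was 0.18 with an adjusted p of 0.0897 by edgeR. *MT-CO2* and *MT-CO3* had log2 fold changes of 0.28 and 0.32 and edgeR adjusted p of 0.0207 and 0.0123, again with both FLO-1LM libraries above both parental ones.

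ATP synthase (complex V) uses the proton gradient to make ATP, and its mitochondrial subunits are *MT-ATP6*, which forms part of the proton channel, and *MT-ATP8*, a small membrane subunit. These genes overlap in different reading frames. *MT-ATP8* (MT:8366-8572, forward strand) is printed below from the GRCh37 reference because it changed most among the heavy-strand genes that passed; the capitals mark its last 46 bases (MT:8527-8572), which are also the start of *MT-ATP6* (MT:8527-9207).
MT-ATP8: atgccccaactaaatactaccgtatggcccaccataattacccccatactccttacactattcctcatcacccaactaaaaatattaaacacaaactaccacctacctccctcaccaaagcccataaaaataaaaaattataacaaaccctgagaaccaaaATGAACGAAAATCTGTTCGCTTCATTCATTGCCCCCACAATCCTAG

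*MT-ATP8* had 128.6 and 135.2 CPM in FLO-1LM and 69.3 and 68.9 in parental cells. It rose 1.91-fold, a log2 fold change of 0.93 by edgeR (SE 0.081, adjusted p = 1.49e-06), and replicates of a line differed by less than 0.1 on that scale. *MT-ATP6*, which shares the capital letters above and the same precursor, had 7288 and 6866 CPM in FLO-1LM and 6313 and 6605 in parental cells and did not pass, at 0.13 by edgeR (SE 0.060, adjusted p = 0.372). There were 1.76 and 1.97 *MT-ATP8* counts per 100 *MT-ATP6* counts in FLO-1LM and 1.10 and 1.04 in parental cells, a ratio of 1.74 between the lines. How the counting treated reads over the shared bases is not given in the sources used here. Per length, *MT-ATP8* was listed at 334 CPM per kb in parental cells and *MT-ATP6* at 9484. No tRNA gene lies between these overlapping genes. Whether the counts listed for *MT-ATP8* measure the amount of its mRNA was not tested.

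**Figure D3:**
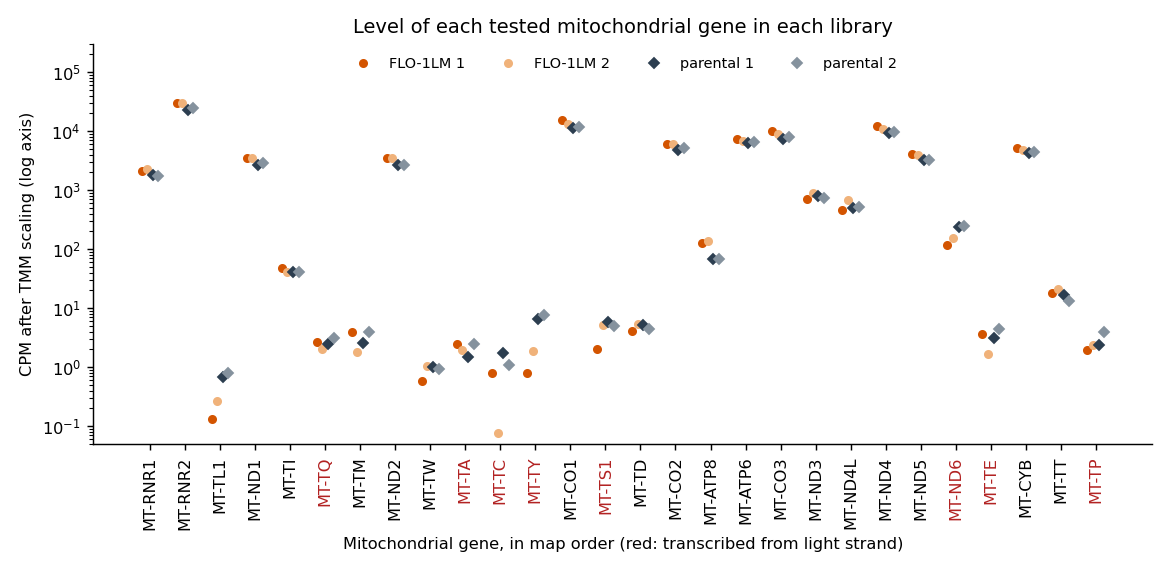
Points give the CPM of each of the 28 tested mitochondrial genes in each of the 4 libraries on a log axis, in map order, with circles for FLO-1LM, diamonds for parental cells and the names of light-strand genes in red. *MT-RNR2* is highest, from 23027 to 30330 CPM, most tRNAs lie below 10, and the FLO-1LM circles fall below the parental diamonds for *MT-ND6* and *MT-TY*.

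All 14 of the 14 heavy-strand rRNA and protein genes had a log2 fold change above 0, from 0.06 to 0.93 with a median of 0.31, but with the summed mitochondrial counts as library size their median was 0.01 and *MT-CO2* was at −0.017. That scaling sets the mitochondrial genes against one another, and it moved the median of all genes tested to −0.30. On it *MT-ATP8* was the only heavy-strand gene that passed as higher, at 0.64 by edgeR (adjusted p = 1.69e-05), and the other heavy-strand rRNA and protein genes ranged from −0.24 to 0.08. Compared per length, the order of these genes in parental cells began with *MT-RNR2*, then *MT-CO3* at 9744 CPM per kb, *MT-ATP6* at 9484, *MT-CO1* at 7540, *MT-CO2* at 7271 and *MT-ND4* at 6789. The lowest protein genes were *MT-ND6* at 464 and *MT-ATP8* at 334 in parental cells, and these exchanged places in FLO-1LM, at 263 and 637 CPM per kb.

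*MT-ND6*, a membrane subunit of complex I, is the only protein gene of light-strand transcription (MT:14149-14673, reverse strand). Its first 90 bases (MT:14584-14673) are printed from the GRCh37 reference, read along the transcript with the start codon in capitals, because they show its many G bases, the base in which the strands differ.
MT-ND6: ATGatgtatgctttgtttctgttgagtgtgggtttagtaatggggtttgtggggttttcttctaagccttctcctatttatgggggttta

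The whole gene holds 35.6% G and 7.0% C as read along its transcript. In the 9 light-strand genes G made up 23.5% to 36.1%, and in the 28 heavy-strand genes 6.3% to 19.1%, without overlap. The C content overlapped, at 7.0% to 21.2% in light-strand and 12.3% to 36.0% in heavy-strand genes. *MT-ND6* had 2658 and 4049 counts in FLO-1LM and 5323 and 4705 in parental cells. These were 119.3 and 157.3 CPM against 241.5 and 245.4, with both FLO-1LM libraries below the parental ones and farther from each other. The gene fell by 0.81 on the log2 scale in edgeR (SE 0.099, adjusted p = 6.60e-05), opposite in sign to the complex I subunits that rose. There were 2.91 and 4.02 *MT-ND6* counts per 100 counts of *MT-ND5*, its neighbour on the other strand, in FLO-1LM and 7.47 and 7.60 in parental cells, 2.17 times as many in parental cells. Against *MT-CYB*, the neighbour on its other side, the values were 2.28 and 3.23 per 100 in FLO-1LM and 5.59 and 5.53 in parental cells.

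*MT-TY*, the tRNA for tyrosine, was the only tRNA that passed the test. It ends on the same base at which *MT-TC*, the tRNA for cysteine, begins on the same strand. Both are printed from GRCh37, read along the transcript (MT:5826-5891 and MT:5761-5826, reverse strand), with the shared base in capitals, because they gave the lowest 2 light-strand fold changes and reads across the junction touch both.
MT-TY: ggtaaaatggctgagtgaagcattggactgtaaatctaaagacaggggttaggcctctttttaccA
MT-TC: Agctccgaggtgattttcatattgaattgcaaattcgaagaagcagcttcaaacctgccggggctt

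*MT-TY* had 18 and 48 counts in FLO-1LM and 146 and 148 in parental cells. The counts were few and the FLO-1LM libraries unequal, but both were well below the parental ones, and edgeR gave a log2 fold change of −2.40 (SE 0.34, adjusted p = 0.00034). *MT-TC* had 18 and 2 counts in FLO-1LM and 38 and 21 in parental cells, also without overlap, but did not pass, at −1.70 by edgeR (SE 0.75, adjusted p = 0.355). The 2 counts of FLO-1LM replicate 2 were below the 3 counts used here as a floor, and the value turned on which FLO-1LM library was kept. By edgeR it was −4.10 without replicate 1 (adjusted p = 0.00192) and −0.81 without replicate 2 (adjusted p = 0.509). *MT-TC* and the heavy-strand *MT-TL1* reached the count filter only through the parental libraries, which favours lower values in FLO-1LM. Without *MT-TC* the light-strand median was −0.55.

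None of the other 5 light-strand tRNAs tested passed. *MT-TP* (proline) had 43 and 61 counts in FLO-1LM and 53 and 76 in parental cells, with −0.56 by edgeR (SE 0.36, adjusted p = 0.596). *MT-TS1* (serine) had 46 and 134 counts in FLO-1LM and 128 and 95 in parental cells, with −0.55 (SE 0.33, adjusted p = 0.548 by edgeR), and *MT-TE* (glutamate) had 81 and 43 against 70 and 85. In *MT-TS1* and *MT-TE* the lines overlapped, with FLO-1LM replicate 1 lowest for the former and replicate 2 for the latter. *MT-TQ* (glutamine) and *MT-TA* (alanine) had 33 to 60 counts in every library, with edgeR log2 fold changes of −0.24 and 0.18.

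None of the 6 heavy-strand tRNAs tested passed. *MT-TI* (isoleucine) was the most counted tRNA, with 1075 and 1043 counts in FLO-1LM and 911 and 786 in parental cells, but its 48.3 and 40.5 CPM in FLO-1LM and 41.3 and 41.0 in parental cells overlapped. *MT-TT* (threonine) had 398 and 534 counts in FLO-1LM and 366 and 256 in parental cells, without overlap in CPM, and edgeR gave 0.36 (SE 0.16, adjusted p = 0.336). *MT-TL1* (leucine) had 3 and 7 counts in FLO-1LM and 15 and 15 in parental cells, the only heavy-strand gene tested with both FLO-1LM libraries below, and edgeR gave −1.80 (SE 0.80, adjusted p = 0.365). *MT-TM* (methionine), *MT-TW* (tryptophan) and *MT-TD* (aspartate) had 13 to 136 counts, overlapping between the lines. The standard error was 0.11 for *MT-TI* and 0.16 for *MT-TT*, near the 0.12 of *MT-ND4L*, but it reached 0.80 for *MT-TL1*, so for the least counted tRNAs only large differences could have been found at this depth.

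The 9 genes that did not pass the filter are all tRNAs. *MT-TF* (phenylalanine) had 6 counts in parental replicate 1 and 0 in the other libraries. The other 8 had no counts in any library, which allows at most 3 counts, or 0.117 to 0.156 CPM per library by counting error alone. They are *MT-TN* of light-strand transcription and *MT-TV*, *MT-TK*, *MT-TG*, *MT-TR*, *MT-TH*, *MT-TS2* and *MT-TL2* of heavy-strand transcription. *MT-TV* lies between the heavily counted *MT-RNR1* and *MT-RNR2*, and how reads over such borders were assigned is not given in the sources used here.

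Light-strand genes lie opposite heavy-strand precursors that are far more abundant, so nuclear genes in a like position were set beside them. There were 2737 nuclear genes that overlap exons on the other strand, where that other gene was counted at least 10 times as often. With no filter on low counts, their summed CPM was 3413 and 3527 in FLO-1LM and 4414 and 4432 in parental cells, 1.27 times as much in parental cells. At a limit of 100 times, which was chosen after seeing the data, the sum over 1592 genes was 285.0 and 277.4 in FLO-1LM and 798.6 and 786.0 in parental cells, 2.82 times as much. The parental sums were higher without overlap at both limits. These are sums of CPM and not shares of mitochondrial counts, so their ratios are not on the scale of the light-strand share. By edgeR 151 of the 1170 genes tested at the lower limit were lower in FLO-1LM, which is 12.9%, where 1.83% of all tested genes fell. But 404 of the 1170, and 109 of the 151, had reached the count filter only through the parental libraries. Without those 404 the median log2 fold change was −0.07, against −0.38 with them. With at least 10 counts required in every library 50 were lower. The share of all tested genes called lower in that setting is not given here. The strand setting of the counting is not given in the sources used here. The part of reads from the opposite strand in the light-strand values was not tested.

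Nuclear copies of mitochondrial genes can also share reads with the members. The files list 394 such copies, and 8 passed the filter, of which edgeR, DESeq2 and limma voom each called 0. By edgeR 0.402% of all tested genes were called higher and 1.83% lower. At an unadjusted p below 0.05 by edgeR 3 were higher and 0 lower. The 3 were 37.5% of the copies tested, where 5.28% of all tested genes were higher. *MTATP6P1* on chromosome 1 (1:569076-569756, forward strand) had 35471 and 32846 counts in FLO-1LM and 29969 and 29903 in parental cells. It is 98.5% identical to *MT-ATP6* over the whole gene, with 10 differing bases, and it had 21.8 and 18.6 counts per 100 of *MT-ATP6* in FLO-1LM and 21.5 and 23.6 in parental cells. *MTND2P28*, 98.4% identical to *MT-ND2*, had 9.41 and 8.42 counts per 100 of its mitochondrial gene in FLO-1LM and 10.4 and 10.1 in parental cells. *MTND4P12*, *MTCO1P12* and *MTCO2P12* had 30 to 596 counts in each library. The copies most like *MT-ATP8* and *MT-ND6* had few counts. *MTATP8P1*, with 5 bases different from *MT-ATP8*, had 0 in every library, and *MTND6P4* had 9 in parental replicate 1 and 0 elsewhere. With the counts of the copies added to their mitochondrial genes, 10 mitochondrial genes were still higher and 2 lower by edgeR.

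*MT-ATP8*, *MT-ND6* and *MT-TY* passed the test in the same direction under all 14 alternative settings, which included each library left out in turn. The log2 fold change ranged from 0.64 to 0.97 for *MT-ATP8*, from −1.11 to −0.63 for *MT-ND6* and from −3.14 to −1.94 for *MT-TY*. *MT-RNR2*, *MT-ND2*, *MT-ND4* and *MT-ND5* kept their calls with each library left out, and lost them with library sizes from mitochondrial counts. *MT-RNR1*, *MT-ND1*, *MT-CO1*, *MT-CO2* and *MT-CO3* were no longer called without parental replicate 1, where 5 mitochondrial genes were called higher.

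**Figure D4:**
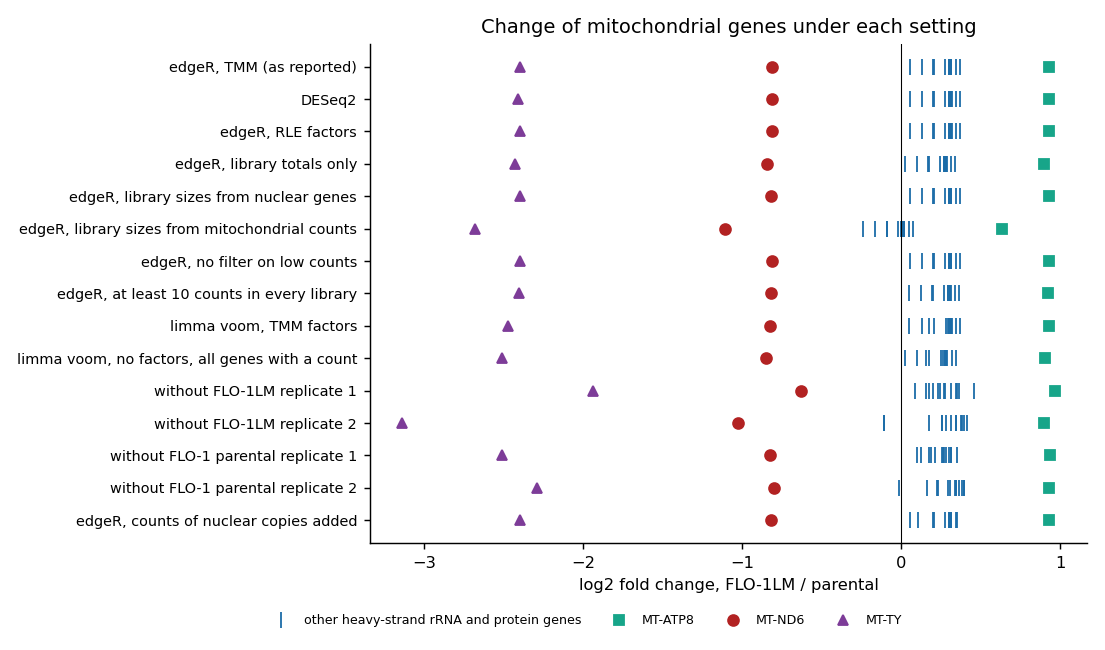
The horizontal axis gives the log2 fold change, FLO-1LM against FLO-1 parental, and each row is the reported fit or one of the 14 alternative settings. Squares mark *MT-ATP8*, circles *MT-ND6*, triangles *MT-TY* and blue ticks the other heavy-strand rRNA and protein genes. Where library sizes are taken from mitochondrial counts, the blue ticks range from −0.24 to 0.08, with *MT-CO2* at −0.017.

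Transcription, processing and decay of mitochondrial RNA depend on proteins made from nuclear genes, and a list of 43 nuclear genes was examined. The list also holds genes of mitochondrial DNA replication and of tRNA modification and charging, such as *POLG*, *TRMU* and *YARS2*. *PRORP* did not pass the filter, with 0 and 2 counts in FLO-1LM and 13 and 6 in parental cells. Of the 42 that passed the filter, edgeR called 0 at an adjusted p below 0.05, where 0.402% of all tested genes were higher and 1.83% lower. DESeq2 and limma voom also called 0. At an unadjusted p below 0.05 by edgeR 3 were higher and 0 lower. The 3 were 7.14% of the list, where 5.28% of all tested genes were higher and 7.08% lower at that p. The median log2 fold change of the list was 0.05, with 30 above 0 (71.4%, against 50.4% of all tested genes) and 12 below. *POLRMT*, the mitochondrial RNA polymerase, had 56.3 and 53.6 CPM in FLO-1LM and 51.6 and 60.1 in parental cells, and *TFAM*, which packages mitochondrial DNA and activates its promoters, had 109.0 and 113.8 in FLO-1LM and 116.3 and 116.7 in parental cells. Their log2 fold changes were −0.02 and −0.06. The initiation factor *TFB2M* was at 0.32 (edgeR adjusted p = 0.235), the elongation factor *TEFM* at 0.25 (0.595) and the termination factor *MTERF1* at −0.28 (0.714). *LRPPRC* and *SLIRP*, which together stabilise mitochondrial mRNAs, were at 0.18 (0.251) and 0.22 (0.566). *PNPT1*, a subunit of the complex that degrades mitochondrial RNA, came nearest to the threshold and is named for that after its value was seen. It had 62.2 and 61.8 CPM in FLO-1LM and 49.0 and 48.1 in parental cells, without overlap, with a log2 fold change of 0.35 by edgeR (SE 0.091, adjusted p = 0.0502).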

How the data were processed

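Per the labels and methods, total RNA was extracted, made into directional libraries and sequenced on an Illumina instrument. The submitters' processing notes name bcl2fastq 2.17 and Trimmomatic 0.30. The authors mapped reads to GRCh37 and deposited raw counts of reads for each Ensembl gene, with no normalization; the aligner, counting program, strand setting and handling of multi-mapped reads are not given in the sources used here.

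Genes were filtered with filterByExpr (minimum count 10, minimum total 15), scaled by TMM, and compared with glmQLFTest of edgeR 4.0.16 in R 4.3.3, with Benjamini-Hochberg adjustment over all 17143 genes tested and a threshold of 0.05. The SE was taken from the log2 fold change and the square root of the F statistic. Alternatives used limma 3.58.1 (voom), DESeq2 1.42.0, other library sizes and filters, and each library left out. Scripts were tested on simulated data. Positions and opposite genes came from GENCODE mapped to GRCh37 (55665 IDs matched), mitochondrial sequences from the GRCh37 genome, and identities of nuclear copies from alignments in Biopython 1.88. All 37 members were named, with set nuclear factors and the 5 most counted nuclear copies. Members and lists were chosen with earlier results of these data known. Protein sequences were not used here.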

Additional observations from a re-analysis of the deposited data

How the results depend on the processing

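The 28 tested genes gave 390 values under 14 alternatives. Of these, 362 kept their side of the threshold, 17 lost a call, 10 gained one and 1 called gene changed sign. A further 16 values of genes that had not passed changed sign. With library sizes from mitochondrial counts, which remove any change common to these genes, *MT-CO2* reversed to −0.017 (edgeR adjusted p = 0.867), 1 mitochondrial gene was higher (*MT-ATP8*) and 4 were lower, all 4 of light-strand transcription (*MT-ND6*, *MT-TY*, *MT-TC* and *MT-TS1*). In that setting 11 nuclear factors were lower, 0 nuclear respiratory chain subunits were higher and 30 lower, and 2 genes opposite a more abundant gene were higher and 398 lower. The setting moved the median log2 fold change of all genes tested to −0.30, so nuclear genes of any kind were shifted down. The share of all tested genes called lower in it is not given here. These counts are therefore not results about the lists. Nuclear subunits called higher were 0 with DESeq2, with library totals only and with voom without factors. Nuclear factors called higher were 1 with library sizes from nuclear genes and 1 without a filter. Genes opposite a more abundant gene called higher were 0 with DESeq2 and 2 without a filter. With at least 10 counts in every library 0 were higher and 50 lower, and the share of all tested genes called there is not given here. At the 100-fold limit, chosen after seeing the data, 386 were tested. Of these 0 were higher and 92 lower, where 1.83% of all tested genes fell. But 249 of the 386, and 74 of the 92, had passed the filter only through the parental libraries, which favours lower values in FLO-1LM. At least 10 counts in every library also ended the calls of *MT-CO1* (edgeR adjusted p = 0.0584) and *MT-CO2* (0.0559).

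With each library left out in turn, mitochondrial and heavy-strand genes called higher ranged from 5 to 11, and mitochondrial and light-strand genes called lower from 2 to 4; the lone library left in a line is then assumed to vary like the others. Without parental replicate 1, *MT-RNR1*, *MT-ND1*, *MT-CO1*, *MT-CO2* and *MT-CO3* were no longer called (edgeR adjusted p 0.0751 to 0.289), and without parental replicate 2 *MT-RNR1* was not (0.0993). Without FLO-1LM replicate 1, *MT-TC* and *MT-TE* were called lower and *MT-ND4L* higher; without replicate 2, *MT-TS1* was called lower and *MT-CYB* higher. Nuclear factors ranged from 0 to 1 higher, nuclear subunits from 0 to 5 higher and 0 to 2 lower, and opposite genes from 0 to 10 higher (10 without FLO-1LM replicate 1) and 44 to 227 lower (44 and 45 without parental replicate 2 and 1). The share of all tested genes called in these fits is not given here, so these counts are not results about the lists. The log2 ratio of the light-strand share was −1.11 and ranged from −1.34 to −0.90. Other than in these stated constructions, the cause of each change was not tested. With 2 libraries a line and few counts on most tRNA genes, depth limits what could be seen in the least counted tRNAs.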

Other observations

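The nuclear subunits of the respiratory chain and ATP synthase, which are assembled with the mitochondrially encoded ones, were examined as a list. Of 85 in the files 81 were tested. By edgeR 1 was called higher and 0 lower, which is 1.23% and 0%, where 0.402% and 1.83% of all tested genes were. At an unadjusted p below 0.05 by edgeR 11 were higher and 2 lower, which is 13.6% and 2.47%, where 5.28% and 7.08% of all tested genes were. Limma voom called 1 higher and DESeq2 0. The median log2 fold change was 0.03, against 0.31 for the 14 heavy-strand rRNA and protein genes, with 51 subunits above 0 and 30 below. The gene called was *ATP5PO*, a subunit of the stalk of ATP synthase. It had 84.2 and 78.2 CPM in FLO-1LM and 63.0 and 65.0 in parental cells, without overlap, and a log2 fold change of 0.34 by edgeR (SE 0.087, adjusted p = 0.0450). Its call was lost under 7 of the 14 alternatives, namely DESeq2, library totals only, library sizes from mitochondrial counts, voom without factors, and without FLO-1LM replicate 1 (adjusted p = 0.0517 by edgeR) or either parental library.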
